A study of Homo sapiens with 23 samples.

Results

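IRF4 is a transcription factor that plasma cells and multiple myeloma cells depend on, and it acts both as an activator of plasma cell genes and as a repressor. Myeloma lines descend from different patients and differ widely at baseline, because each carries its own translocations and its own remnant of the plasma cell programme. IRF4 binds interferon response elements (ISRE) and composite elements shared with the ETS factors PU.1 and SPIB (EICE), so it shares sites with the interferon-driven members of its family. The comparison described here asks whether 4 myeloma lines became more alike or less alike in expression when IRF4 was targeted.

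All 23 libraries of the series entered the comparison, 11 with a guide RNA named EV in the labels and 12 with a CRISPR guide against IRF4 (21B in the sample titles). The lines were H929, MM1S, OPM2 and RPMI-8226, multiple myeloma lines treated for 48 h with doxycycline, which switched on the guide, and mRNA libraries were made from total RNA. Each of the 8 groups of line and guide had 3 libraries, except MM1S with the EV guide, which had 2. H929 and OPM2 belong to the lines with a translocation of NSD2 and FGFR3 and MM1S and RPMI-8226 to those with a translocation of MAF, and the EV libraries followed that division: NSD2 (a histone methyltransferase) averaged 852 and 1491 CPM (counts per 1000000 counts of a library) in H929 and OPM2 against 332 and 220.0 CPM in MM1S and RPMI-8226, and MAF averaged 595 and 1345 CPM in MM1S and RPMI-8226 against 178 and 69.6 CPM in H929 and OPM2. These genes were named for that check only, after their values were seen. Of the plasma cell markers, SDC1 (syndecan 1, CD138) at 417 to 1248 CPM and XBP1 at 420.2 to 3362 CPM, as group means, were present in every EV group. The marker SLAMF7 was not: it averaged 1.00 CPM in the RPMI-8226 EV libraries against 271 to 384 CPM in the other lines. The study has 1 guide against IRF4 and 1 time point, each line stands for 1 donor's tumour, and separate cultures are not stated for the replicates, so p-values measured the spread between these libraries, which may be technical.

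IRF4 itself was lower with its guide in each line. In H929 its level was 2181, 2219 and 2196 CPM with the EV guide and 579, 773 and 855 CPM with the IRF4 guide. The MM1S values were 724 and 641 CPM against 279, 287 and 228 CPM. OPM2 had 1569.7, 2031 and 1319 CPM against 890.2, 1331 and 897 CPM, and there the groups overlapped by 1 library. RPMI-8226 had 482, 461 and 409 CPM against 193, 250.1 and 187 CPM. The log2 fold changes (edgeR) were -1.58 ± 0.18 (standard error, SE), -1.37 ± 0.20, -0.66 ± 0.18 and -1.10 ± 0.18, with adjusted p from 7.83e-07 to 0.00675. H929 was the highest line with the EV guide and OPM2 with the IRF4 guide, and RPMI-8226 was the lowest under both. The SD of IRF4 over the 4 lines was 1.06 log2 units with the EV guide and 1.11 with the IRF4 guide (difference 0.05 ± 0.10, adjusted p = 0.774). The fall of IRF4 did differ between lines by an F test in edgeR (adjusted p = 0.0317). Of the pairs of lines only H929 and OPM2 were called, with a deeper fall in H929 (-0.92 ± 0.26, edgeR, adjusted p = 0.0133). A deletion by CRISPR can leave transcripts that still count, so these levels measure RNA and not IRF4 protein.

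Library totals ran from 8390850 to 27485400 counts with the EV guide (median 22794600) and from 6907390 to 28487000 with the IRF4 guide (median 21952600). Of 28395 genes in the count table, 16468 were tested. Of all the variance of log2 CPM (with 2 counts added per library of mean size) over these genes, 86.7% lay between the lines, 5.31% between the guides, 3.87% in the interaction of line and guide and 4.14% between replicates.

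No convergence of the 4 lines as a whole was measured. For each gene the spread was taken as the SD of the 4 line means of log2 CPM, and over all genes, as a root mean square with the replicate error removed, it was 1.41 with the EV guide and 1.43 with the IRF4 guide. The difference of 0.019 had a jackknife SE over libraries of 0.00671, and an exact permutation of the guide labels within each line, two-sided over 80000 regroupings, gave p = 0.405. The SE covers the error between libraries, and the permutation asks what regrouping the guides would give if the guide changed no gene. Genes did change with the guide in every line, so the permutation p cannot say whether the spread was equal under the guides. The direction of this difference rested on the genes and the scale used. Among genes with a mean log2 CPM of at least 2 it was -0.0193 (p = 0.462), and on the authors' deposited log2 RPKM it was 0.0599 (p = 0.00196, same exact permutation test). Without H929 it was -0.000449, and without OPM2 it was 0.0313 (p = 0.0218, exact permutation of the other 3 lines). The median SD of a gene was 0.70 with the EV guide and 0.74 with the IRF4 guide, and the SD was lower with the IRF4 guide for 7681 genes (46.6%).

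Distances between pairs of lines moved little. A distance is the root mean square, over genes, of the difference between 2 line means of log2 CPM, with the replicate error removed. H929 and OPM2 were the closest pair under both guides, at 1.76 with the EV guide and 1.80 with the IRF4 guide, a ratio of 1.03 ± 0.00942 (jackknife SE). H929 and RPMI-8226 moved apart most, from 2.12 to 2.20 (ratio 1.04 ± 0.00826), and H929 and MM1S from 1.88 to 1.92 (1.02 ± 0.00811). The pairs without H929 had ratios within about 1 SE of no change: MM1S and OPM2 stayed at 1.95 (0.999 ± 0.00646), MM1S and RPMI-8226 went from 2.06 to 2.07 (1.00 ± 0.0066), and OPM2 and RPMI-8226 from 2.20 to 2.19 (0.996 ± 0.00763). Among genes with a mean log2 CPM of at least 2, H929 and RPMI-8226 alone of the 6 pairs had a ratio above 1 (1.03), and the other 5 lay between 0.962 and 0.982. Within a line, the 2 guides lay 0.977 apart in H929, 0.736 in OPM2, 0.612 in MM1S and 0.574 in RPMI-8226, so H929 moved furthest from its own EV libraries and the distance between lines was 1.76 or more throughout.

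**Figure D1:**
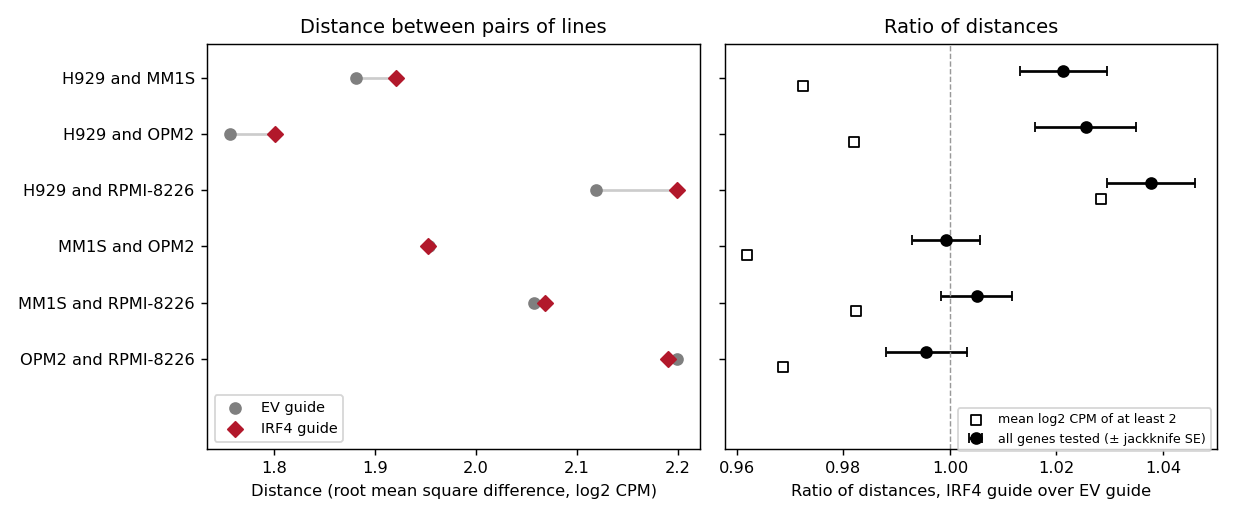
Left, distance between each pair of lines (root mean square difference of log2 CPM over 16468 genes) with the EV guide (circles) and the IRF4 guide (diamonds); right, the ratio of the distances, with all genes tested (black, bars ± jackknife SE over libraries) and with genes of a mean log2 CPM of at least 2 (open squares). The 3 pairs that include H929 lie right of 1 with all genes tested, and H929 and RPMI-8226 is the pair whose open square also does.

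Below that small net change, many single genes moved in both directions. The spread of a gene was called changed at an adjusted p under 0.05 in a test built on limma's moderated variance, with p-values adjusted by Benjamini-Hochberg over all genes. Spread narrowed for 2035 genes (12.4% of those tested) and widened for 2822 (17.1%), so 29.5% changed one way or the other. A change of more than 0.5 in SD was reached by 715 narrowed and 1093 widened genes, and a change of 1 or more by 165 and 312. Summed over genes, the between-line variance fell by 3257 squared log2 units in the narrowed genes and rose by 4001 in the widened genes, against totals of 33608 with the EV guide and 34427 with the IRF4 guide. Widened genes outnumbered narrowed ones in the lowest and the highest classes of expression (17.1% against 6.32% below a mean log2 CPM of 0, and 24.1% against 15.1% from 6 up). Narrowed genes were the more frequent between 0 and 2 (11.7% against 8.70%) and between 2 and 4 (15.1% against 12.6%). A gene near 0 counts in all EV groups passed the filter only through an IRF4-guide group, and it could hardly narrow. The reverse held for a gene near 0 counts in all IRF4-guide groups.

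**Figure D2:**
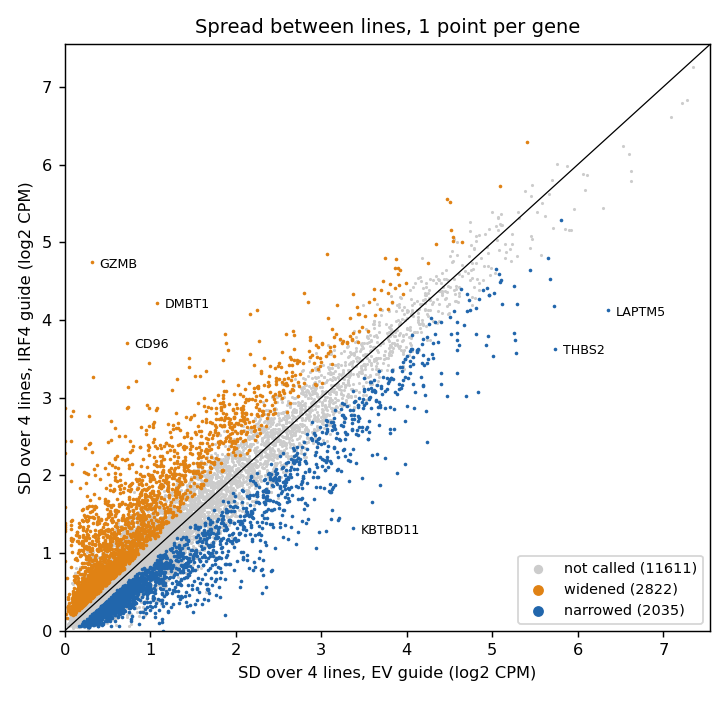
SD over the 4 line means of log2 CPM with the EV guide (horizontal) and with the IRF4 guide (vertical), 1 point per gene tested, with the line of equal spread. Narrowed genes (blue, 2035) lie below the line and widened genes (orange, 2822) above it, and GZMB goes from 0.32 to 4.74.

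A narrowed gene can lose its spread from below or from above. In 838 of the narrowed genes the line that was lowest with the EV guide rose, in 807 the line that was highest fell, in 244 both happened and in 146 neither change was called. Of the widened genes, 1459 had a rise in the line that ended highest, 1005 a fall in the line that ended lowest and 267 both, with 91 having neither. The line whose response departed most from the median response of the other lines was H929 for 43.1% of widened genes. H929 was that line for 32.1% of narrowed genes and 34.0% of all genes tested. A difference in response between lines was called for 7899 genes (48% of those tested) by an F test with 3 degrees of freedom in edgeR, and 4042 of these were called neither narrowed nor widened.

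The largest called narrowing among the genes ranked was that of LAPTM5. This gene, which encodes a lysosomal membrane protein of blood cells that restrains antigen receptor signalling, was at 0.160, 0.50 and 0.699 CPM in the EV libraries of H929 and at 0.409, 0.949 and 0.132 CPM in those of OPM2. The MM1S EV libraries had 1592 and 1544 CPM, and the RPMI-8226 EV libraries 683, 655 and 654 CPM. With the IRF4 guide LAPTM5 rose to 12.4, 12.9 and 14.3 CPM in H929 and to 13.3, 14.3 and 10.05 CPM in OPM2. It rose less in MM1S, to 2867, 2994 and 3029 CPM, and in RPMI-8226, to 994, 920.4 and 1083 CPM. The groups of the 2 guides did not overlap in any line, and the SD fell from 6.36 to 4.13 (difference -2.23 ± 0.24, adjusted p = 2.72e-06).

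LCP1, the actin-bundling protein L-plastin of leukocytes, followed the same order with smaller gaps. Its level rose from a mean of 38.8 to 146 CPM in H929 (log2 fold change 1.90 ± 0.12) and from 7.28 to 109.9 CPM in OPM2 (3.87 ± 0.14). In MM1S the means were 1717 and 1692 CPM and in RPMI-8226 1324 and 1168 CPM, with no call in either (adjusted p = 0.958 and 0.204). The SD of LCP1 fell from 3.88 to 2.03. MYO1F and MYO7A, unconventional myosins, narrowed as well, from 3.74 to 2.23 and from 3.81 to 2.55, and they rose in all 4 lines, most in H929 and OPM2. Of 21 tested leukocyte actin regulators and myosins, 7 narrowed and 7 widened (33.3% each, against 12.4% and 17.1% of all genes). Their median SD was 0.996 with the EV guide and 0.97 with the IRF4 guide, against 0.70 and 0.74 over all genes tested.

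CASP1, the inflammasome protease that matures interleukin 1 beta, ended nearly level in the 4 lines. H929 EV libraries had 1.28, 0.875 and 1.49 CPM and OPM2 EV libraries 5.98, 4.27 and 6.21 CPM, below the 41.1 and 46.3 CPM of MM1S and the 25.5, 25.1 and 29.0 CPM of RPMI-8226. With the IRF4 guide, CASP1 was at 33.4, 33.7 and 22.1 CPM in H929 and at 43.9, 43.3 and 33.7 CPM in OPM2. The values were 50.7, 53.1 and 46.0 CPM in MM1S and 20.2, 23.6 and 25.7 CPM in RPMI-8226. Thus H929 and OPM2 came within the range of the other lines, and the SD of CASP1 fell from 2.30 to 0.49 (difference -1.82 ± 0.11, adjusted p = 1.48e-11). UBE2L6, which conjugates the ubiquitin-like protein ISG15, moved most in OPM2, its lowest line, where it rose from a mean of 0.378 to 7.21 CPM (log2 fold change 3.95 ± 0.22) against 0.59 in H929, 0.75 in MM1S and 0.16 in RPMI-8226 (adjusted p = 0.218). GDA (guanine deaminase) rose in H929 from 0 in all 3 libraries to a mean of 0.983 CPM and in OPM2 from 0.0294 to 2.46 CPM, and MYLK2 (a myosin kinase) rose in H929, MM1S and OPM2 towards the 35.8 and 29.3 CPM of RPMI-8226.

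In 4 of the 12 genes with the largest narrowing, THBS2, KBTBD11, KRT6B and HS6ST2, RPMI-8226 was the highest line with the EV guide and fell. Among all narrowed genes H929 was the highest EV line for 625 (30.7%, against 25.2% of all genes tested). RPMI-8226 was the highest for 583 (28.6%), near its share of all genes tested (29.6%). THBS2, a secreted matrix glycoprotein, was at 506, 506 and 520.2 CPM in the EV libraries of RPMI-8226 and at 62.0, 45.6 and 49.0 CPM with the IRF4 guide (log2 fold change -3.29 ± 0.11). The other lines had under 1 CPM in each library, and the SD went from 5.74 to 3.63. KBTBD11, a BTB-kelch protein, went from 24.6, 18.5 and 21.7 CPM to 0, 0 and 0.0889 CPM in RPMI-8226, which turned it from the highest line into one of the lowest. KRT6B (a keratin) and HS6ST2 (a heparan sulfate sulfotransferase) followed, with means of 26.7 and 2.28 CPM and of 58.9 and 4.54 CPM in RPMI-8226. AFAP1L2, an actin filament associated adaptor, narrowed from both sides. In H929 it rose from 0.479, 0.250 and 0.233 CPM to 9.49, 9.41 and 8.94 CPM, and in MM1S from 1.94 and 1.56 CPM to 3.83, 4.45 and 3.88 CPM. In RPMI-8226 it fell from 61.2, 55.7 and 55.2 CPM to 36.9, 32.6 and 35.4 CPM, and in OPM2 from 70.5, 57.5 and 47.2 CPM to 48.1, 51.5 and 46.8 CPM, where the groups overlapped (adjusted p = 0.049). Without RPMI-8226 the spread of THBS2 was no longer called narrowed (difference -0.20, adjusted p = 0.61), and the differences for KBTBD11, KRT6B and HS6ST2 over the other 3 lines were 0.31, 0.26 and 1.26. HS6ST2 was then called widened (spread test, adjusted p = 0.0223), and KBTBD11 and KRT6B were not called.

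**Figure D3:**
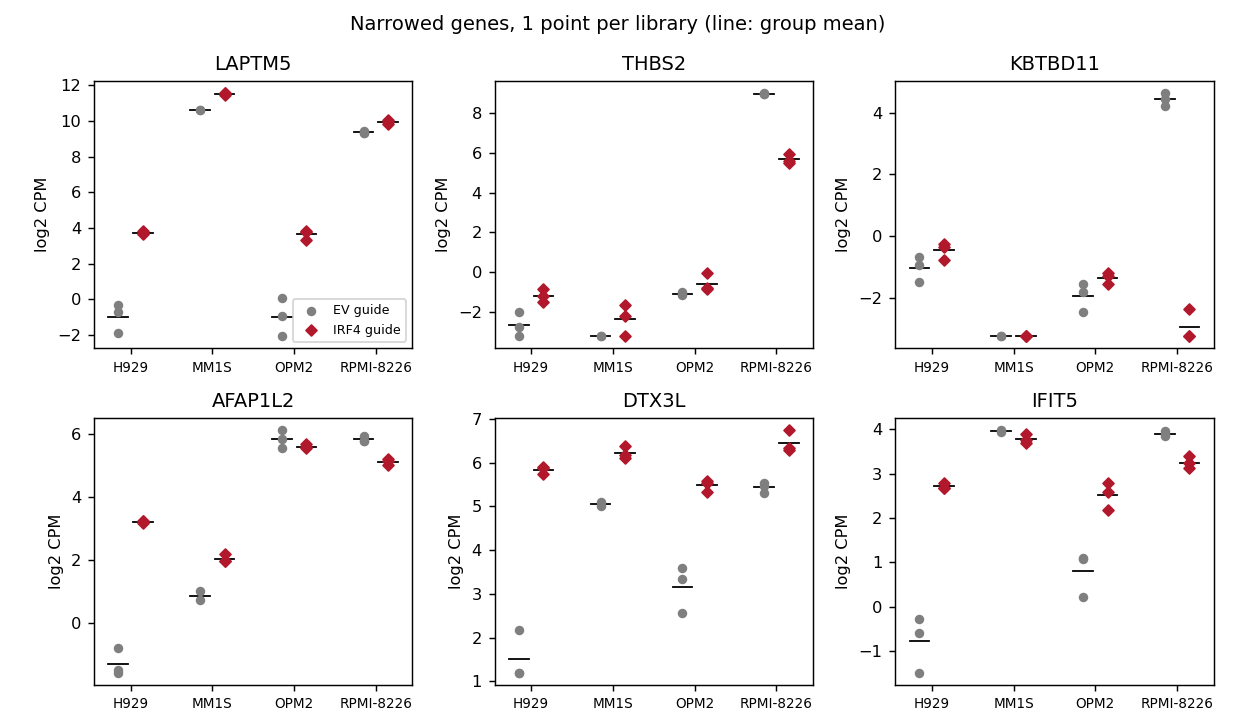
log2 CPM of 6 narrowed genes in each library, by line, with the EV guide (circles) and the IRF4 guide (diamonds); short lines are group means. LAPTM5 rises from below in H929 and OPM2, THBS2 and KBTBD11 fall in RPMI-8226, and DTX3L and IFIT5 end within a narrow band in all 4 lines.

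Interferon-stimulated genes, the antiviral genes that type I interferon switches on, were among the lists with more narrowed than widened members. Of 38 tested members 17 narrowed and 7 widened, against 12.4% and 17.1% of all genes, and the median SD went from 1.57 to 1.32. In 14 of the 17 narrowed members the lowest line rose, in 1 the highest fell and in 2 both happened. OPM2 was the lowest line with the EV guide for 11 of the 17 and for 21 of all 38 (25.6% of all genes tested). In all 7 widened members H929 was the highest line with the IRF4 guide, as in 17 of all 38 (26.7% of all genes tested). In H929 30 members were higher and 1 lower (32.9% and 26.1% of all genes were), in OPM2 25 and 1 (23.3% and 20.2%), in RPMI-8226 25 and 2 (19.2% and 14.7%) and in MM1S 23 and 4 (19.4% and 15.2%). The median log2 fold change of the list was 1.71 in H929, 1.80 in OPM2, 0.82 in RPMI-8226 and 0.87 in MM1S.

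DTX3L, a ubiquitin ligase that works with PARP9 in DNA repair and antiviral defence, ended almost level. Its EV libraries had 2.20, 4.38 and 2.19 CPM in H929, 34.3 and 32.4 CPM in MM1S, 12, 9.96 and 5.81 CPM in OPM2 and 46.0, 44.5 and 39.8 CPM in RPMI-8226. With the IRF4 guide DTX3L had 59.3, 53.5 and 58.6 CPM in H929, 69.4, 72.3 and 83.7 CPM in MM1S, 46.5, 48.1 and 39.9 CPM in OPM2 and 77.7, 81.0 and 108 CPM in RPMI-8226. It rose in each line without overlap, and most where it had been lowest, so that its SD fell from 1.82 to 0.43 (difference -1.39 ± 0.13, adjusted p = 6.96e-08). IFIT5, an interferon-induced RNA-binding protein, rose in the low lines and fell in a high one. H929 went from 0.719, 0.250 and 0.559 CPM to 6.85, 6.27 and 6.29 CPM, and OPM2 from 2.01, 2.02 and 1.06 CPM to 5.91, 6.78 and 4.44 CPM. RPMI-8226 went from 14.6, 15.5 and 14.4 CPM to 8.56, 9.29 and 10.4 CPM, and MM1S had 15.3 and 15.7 CPM against 13.3, 12.8 and 14.8 CPM (adjusted p = 0.479). The SD of IFIT5 fell from 2.36 to 0.57. IFIH1, the cytosolic sensor of double-stranded RNA also known as MDA5, narrowed from 2.34 to 1.46, with log2 fold changes of 1.06 in H929 and 2.19 in OPM2 against 0.20 in MM1S (adjusted p = 0.226) and 0.29 in RPMI-8226.

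Stretches of the promoters of 3 narrowed genes are shown because they hold the ISRE letters, GAAA followed after any 2 bases by GAAA, which were searched on both strands. Each stretch ends at the base before the annotated start and is written 5′ to 3′ along the gene, from RefSeq on GRCh38.p14, with matches in capitals (some overlap). IFIT5 lies on the plus strand at chr10:89414503-89414567, IFIH1 on the minus strand at chr2:162318685-162318863 and TAPBP on the minus strand at chr6:33314079-33314118.
IFIT5: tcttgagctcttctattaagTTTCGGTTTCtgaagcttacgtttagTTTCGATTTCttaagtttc
IFIH1: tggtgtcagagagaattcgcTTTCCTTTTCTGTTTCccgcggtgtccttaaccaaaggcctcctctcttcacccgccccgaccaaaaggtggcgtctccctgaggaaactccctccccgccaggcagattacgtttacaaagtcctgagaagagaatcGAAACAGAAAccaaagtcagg
TAPBP: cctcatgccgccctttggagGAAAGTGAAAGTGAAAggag
IFIT5 has 2 matches upstream of its start and IFIH1 has 3, with TAPBP having 2 that overlap. In windows from 250 bases before to 50 after the start, the ISRE letters stood in 3.65% of the promoters of narrowed genes, 2.91% of widened genes and 3.03% of all tested genes with a promoter in the table, and in 3.65% of all promoters. Among narrowed genes whose SD fell by 1 or more, 14 of 119 promoters (11.8%) had them, against 10 of 234 (4.27%) for the widened genes of that size. The list of interferon-stimulated genes had them in 11 of 16 narrowed members, 3 of 5 widened and 20 of all 30 with a promoter, so narrowed members did not stand out within the list. The EICE letters, GGAA followed after any 2 bases by GAAA, were in 2.75% of narrowed, 2.64% of widened and 2.60% of all tested promoters. These counts describe letters in a window and say nothing of binding.

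Antigen presentation genes of MHC class I narrowed more often than they widened, with 7 narrowed and 3 widened of 15 tested. These shares were 46.7% and 20%, against 12.4% and 17.1% of all genes, so the widened share was near that of all genes. The median SD went from 0.63 to 0.48. TAPBP (tapasin), which loads peptides onto class I molecules, had 144, 148 and 182 CPM in the EV libraries of H929 and 333, 372 and 332 CPM with the IRF4 guide. OPM2 went from 56.6, 58.6 and 66.2 CPM to 156, 161 and 175 CPM, MM1S from 387 and 399.9 CPM to 487, 521 and 491 CPM, and RPMI-8226 from 275, 257 and 237 CPM to 349, 357 and 353 CPM. TAPBP rose in each line, and more in the 2 lines that had been lower, with an SD of 1.16 against 0.68 (adjusted p = 6.96e-08). HLA-B narrowed from 0.78 to 0.36, with a rise of 1.13 ± 0.09 log2 units in H929, its lowest line, and 0.16 ± 0.09 in RPMI-8226, its highest (adjusted p = 0.185). ERAP2, a peptide-trimming enzyme, narrowed through OPM2 (2.38 to 1.79). Reads of HLA genes may be split between close copies, so their levels carry that uncertainty. Of 11 tested MHC class II genes 4 narrowed (36.4%, against 12.4% of all genes) and the other 7 were not called. HLA-DRB1 averaged 98.2 CPM in MM1S with the EV guide and under 1 CPM in the other 3 lines, and its narrowing was no longer called without any 1 of 4 MM1S libraries. The narrowing of HLA-DQA1 was likewise lost without any 1 of 4 libraries, of H929, MM1S or RPMI-8226. On the authors' deposited log2 RPKM none of the 3 named members was called: the adjusted p was 0.137 for the spread of HLA-DMA, 0.235 for the spread of HLA-DRB1 and 0.0898 for the spread of HLA-DQA1.

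Plasma cell identity genes narrowed in 6 of 18 and widened in 3 (33.3% and 16.7%, against 12.4% and 17.1% of all genes). POU2AF1, a B cell coactivator of octamer promoters, converged from above. It fell from 537, 569 and 578 CPM to 237, 273 and 302 CPM in H929, from 276 and 265 CPM to 221, 213 and 183 CPM in MM1S and from 374, 377 and 368 CPM to 221, 251 and 259 CPM in OPM2. RPMI-8226, the lowest line, had 170.4, 154 and 159 CPM against 192, 152 and 164 CPM (adjusted p = 0.586). The SD of POU2AF1 went from 0.76 to 0.30. SLAMF7, the surface target of elotuzumab, fell in 3 lines, from means of 300.1 to 158 CPM in H929, 271 to 111 CPM in MM1S and 384 to 182 CPM in OPM2, and rose in RPMI-8226 from 1.00 to 2.06 CPM. Without RPMI-8226 its SD difference was 0.11 and not called. DERL3, part of the machinery that removes misfolded proteins from the endoplasmic reticulum, widened (1.83 to 2.73): it rose in H929 and MM1S by 0.96 and 0.84 log2 units and fell by 1.01 in OPM2, its lowest line under both guides.

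Sterol and fatty acid synthesis had 7 narrowed and 4 widened of 28 (25% and 14.3%, against 12.4% and 17.1% of all genes). FDFT1 (squalene synthase) and LSS (lanosterol synthase) rose in H929, their lowest line, each by 0.43 log2 units, and fell in OPM2 and RPMI-8226 by 0.67 to 0.80. RPMI-8226 had the highest FDFT1 mean with the EV guide, 335 CPM, then OPM2 with 313, MM1S with 139.6 and H929 with 60.2 CPM, and in the same order the means with the IRF4 guide were 208, 196, 91.9 and 81.6 CPM, with an SD of 1.16 against 0.71. SREBF1, a regulator of lipid synthesis genes, widened from 1.21 to 1.85, with a fall in MM1S, its lowest line (-1.14), and a rise in H929 (0.42). Glycolysis and hypoxia genes had 6 narrowed and 2 widened of 24 (25% and 8.33%). SLC2A3, a glucose transporter, narrowed from 3.31 to 2.20 but was not called on the deposited log2 RPKM. SLC16A3, a lactate carrier, narrowed from 2.09 to 1.31 and rose from 8.36 to 105 CPM in H929 against 217 and 187 CPM in RPMI-8226.

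Genes of the G1/S transition and DNA replication, which were close to level among the EV libraries, spread apart. Of 33 tested members 23 widened and 1 narrowed (69.7% and 3.03%, against 17.1% and 12.4% of all genes). The median SD went from 0.42 to 0.78. In 22 of the 23 the line that ended lowest fell while the highest did not rise. All 33 members were lower in H929 (26.1% of all genes were) and all 33 in MM1S (15.2%), with 26 lower in OPM2 (20.2%) and 6 lower and 3 higher in RPMI-8226 (14.7% and 19.2%). Their median log2 fold change was -0.08 in RPMI-8226 and -0.50 in OPM2, against -0.96 in MM1S and -1.35 in H929.

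MCM4, a subunit of the replicative helicase, shows the pattern library by library. With the EV guide it was at 632, 618 and 539.7 CPM in H929, 697 and 631 CPM in MM1S, 749, 888 and 742 CPM in OPM2 and 579, 599 and 532 CPM in RPMI-8226. With the IRF4 guide MCM4 was at 165, 159 and 163 CPM in H929, 323, 299.7 and 226 CPM in MM1S, 516, 621 and 476 CPM in OPM2 and 488, 567 and 509.5 CPM in RPMI-8226. The EV libraries of the 4 lines lay within a factor of 2 of each other, and with the IRF4 guide H929 and MM1S lay below all libraries of the other lines. The SD of MCM4 rose from 0.21 to 0.82 (difference 0.61 ± 0.06, adjusted p = 1.2e-07). MCM10, which helps to start replication forks, went from 0.43 to 1.04, and POLA2, a subunit of the primase polymerase, from 0.45 to 1.00. CCNE1 (cyclin E), named because it was the 1 narrowed member of the list, went from 1.00 to 0.37, with a fall in H929, MM1S and OPM2 and a rise in RPMI-8226, its lowest line.

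Mitosis genes followed with 14 widened and 4 narrowed of 28 (50% and 14.3%, against 17.1% and 12.4% of all genes). All 28 were lower in H929 (26.1% of all genes were) and 21 in MM1S (15.2%). In OPM2 15 were lower (20.2%) and in RPMI-8226 1 was (14.7%). In RPMI-8226 6 were higher, 21.4% against 19.2% of all genes. FOXM1, the transcription factor of the G2/M programme, fell by 0.98 log2 units in H929, by 0.58 in MM1S and by 0.27 in OPM2 and rose by 0.22 in RPMI-8226, and its SD went from 0.44 to 0.77. BUB1B (a checkpoint kinase) went from 0.11 to 0.46. KIF20A, a mitotic kinesin, narrowed from 0.59 to 0.12, and H929 was its highest line with the EV guide (171, 187 and 156 CPM) and the line that fell (87.4, 66.5 and 86.9 CPM). Without H929, the spreads of FOXM1, BUB1B and KIF20A were no longer called.

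MYC, the growth regulator, went its own way in MM1S. It fell in H929 from 397, 439 and 427 CPM to 162, 187 and 187 CPM, in OPM2 from 411, 531 and 462 CPM to 189, 245 and 273 CPM and in RPMI-8226 from 1194, 1145 and 1113 CPM to 613, 568 and 622 CPM. In MM1S MYC rose from 586 and 551 CPM to 789.7, 788 and 698 CPM (log2 fold change 0.42 ± 0.11, adjusted p = 0.00418). The groups did not overlap in any line, and the SD widened from 0.65 to 1.02 (adjusted p = 4.97e-05), with MM1S replacing RPMI-8226 as the highest line. Without MM1S the spread of MYC was not called. Of 30 tested MYC targets and nucleolar genes 11 widened and 1 narrowed (17.1% and 12.4% of all genes did). All 30 were lower in H929 (26.1% of all genes were), OPM2 (20.2%) and RPMI-8226 (14.7%), against 17 in MM1S (15.2%). DDX21, a nucleolar helicase, went from 0.23 to 0.66, with a mean of 485 against 163 CPM in H929 and smaller falls in the other lines, and NPM1 (nucleophosmin) narrowed from 0.69 to 0.39, with H929 its highest EV line and the one that fell most.

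**Figure D4:**
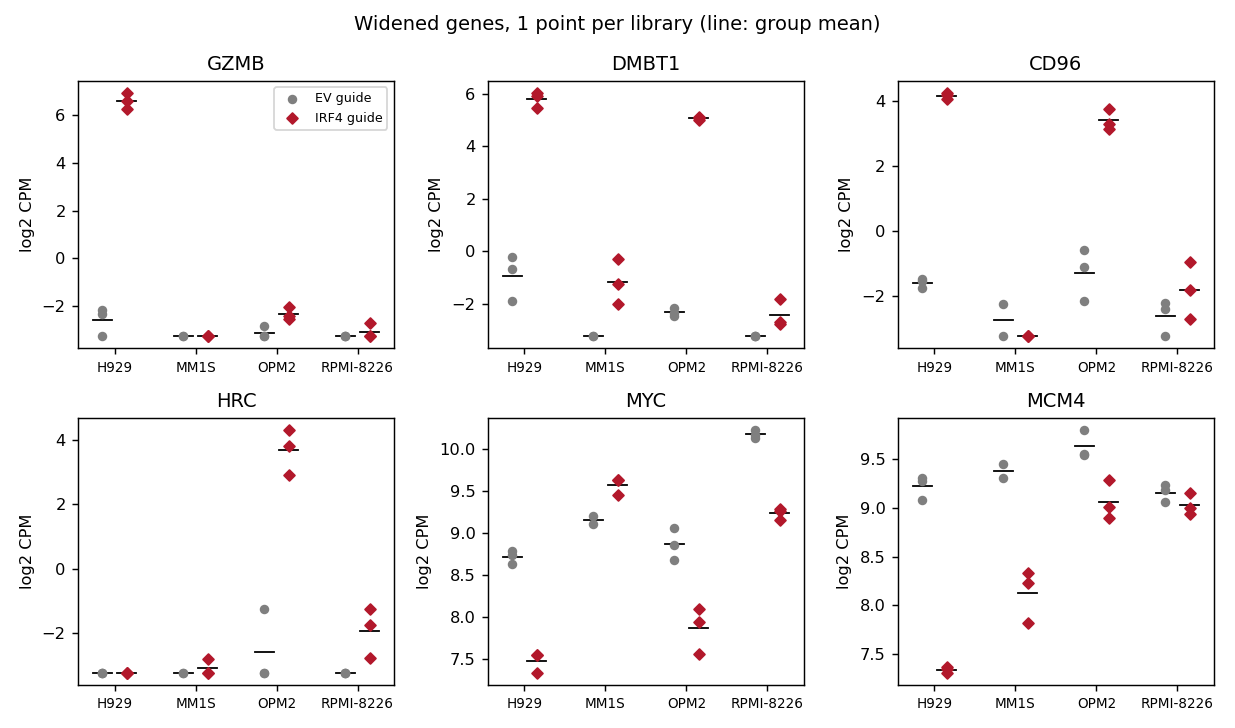
log2 CPM of 6 widened genes in each library, by line, with the EV guide (circles) and the IRF4 guide (diamonds); short lines are group means. GZMB rises in H929, DMBT1 and CD96 in H929 and OPM2 and HRC in OPM2, MYC rises in MM1S and falls in the other lines, and MCM4 falls furthest in H929.

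Most of the 12 largest widenings were of genes near 0 in all 4 lines with the EV guide that rose far in 1 or 2 of them. SP7 and ADAMTS10 had 0 counts in every EV group. Like GZMB, GZMA, HRC and TIE1, they passed the filter only through the IRF4-guide group where they were high. CD96, LINGO4, SLC22A9 and SPATA12 passed only through IRF4-guide groups. All these genes could hardly narrow, so their p-values in the spread test are no separate support for widening. GZMB (granzyme B, a protease of cytotoxic cells) had 0.120, 0 and 0.0932 CPM in the EV libraries of H929 and 96.4, 75.1 and 119 CPM with the IRF4 guide, which is 5 counts against 5501 over the group. GZMB had 0 counts in MM1S under both guides and at most 0.140 CPM in any library of OPM2 or RPMI-8226. Its SD went from 0.32 to 4.74 (difference 4.42 ± 0.18, adjusted p = 4.75e-14). The F test of the response between lines did not call it (adjusted p = 0.149). Of the 12 largest widenings that test called CD96 (adjusted p = 0.00472) and PTPN13 (1.98e-12) and not the other 10, whose adjusted p ran from 0.13 to 1. A group at 0 counts occurred in 23.7% of widened, 13.2% of narrowed and 16.8% of all tested genes.

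DMBT1, a secreted scavenger receptor of epithelia, rose in H929 from 0.160, 0.750 and 0.513 CPM to 44.1, 64.7 and 60.7 CPM and in OPM2 from 0.0743, 0.119 and 0.0881 CPM to 31.8, 34.5 and 33.7 CPM. In MM1S DMBT1 had 0 and 0 CPM against 0.316, 0.708 and 0.139 CPM (adjusted p = 0.0188), and in RPMI-8226 0 in all 3 libraries against 0.0478, 0.0408 and 0.178 CPM (adjusted p = 0.0605). CD96, a receptor of T and NK cells, rose in H929 and OPM2, from 0.239, 0.250 and 0.186 CPM to 16.8, 18.8 and 18 CPM in H929 and from 0.557, 0.119 and 0.352 CPM to 9.75, 13.5 and 8.76 CPM in OPM2. Its values in MM1S and RPMI-8226 were at most 0.408 CPM, and the SDs of DMBT1 and CD96 went from 1.08 to 4.22 and from 0.73 to 3.71. HRC, a calcium-binding protein of muscle, was called only in OPM2 of the 4 lines, with 0, 0 and 0.308 CPM against 13.9, 7.48 and 19.8 CPM. SP7 (osterix, a bone transcription factor) and GZMA (granzyme A) rose in OPM2 from 0 in each library to means of 6.99 and 6.23 CPM, and GZMA also rose in H929, to 0.188 CPM. TIE1 (an endothelial receptor), ADAMTS10 and SPATA12 rose in H929 to 6.59, 3.16 and 11.7 CPM, and SPATA12 also in RPMI-8226, to 0.826 CPM. LINGO4 and SLC22A9 rose in both H929 and OPM2, and LINGO4 also in RPMI-8226 (log2 fold change 3.81, adjusted p = 0.00209). PTPN13, a tyrosine phosphatase, differed from these in widening through loss: RPMI-8226 went from 7.24, 8.64 and 10.4 CPM to 0.0478, 0.122 and 0.356 CPM, while MM1S rose from 27.1 and 25 CPM to 44.0, 49.7 and 65.7 CPM and H929 fell from a mean of 41.9 to 25.1 CPM.

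Markers of T and NK cells, which a myeloma culture should lack, widened in 10 of 19 tested members (52.6%, against 17.1% of all genes). The other 9 were not called. The sum of the 22 markers in the table ran from 32.1 to 39.3 CPM in the EV libraries of H929 and from 332 to 388 CPM with the IRF4 guide. In OPM2 it went from 9.37 to 11.5 CPM up to 38.8 to 48.2 CPM, in MM1S from 6.58 to 7.34 CPM up to 13.3 to 16.6 CPM and in RPMI-8226 from 249 to 298 CPM up to 348 to 408 CPM. KLRD1, KLRK1 and NCR1 were at 0 in H929 with the IRF4 guide, and CD3D averaged 0.744 CPM there and 0 in MM1S and OPM2 under both guides. With 0 counts in every EV group, CD3D could only widen. GZMA and GZMB, with at most 5 counts in any EV group, could hardly narrow. The widened share of 52.6% was thus partly set by which genes passed the filter. Myeloid markers had 5 widened and 1 narrowed of 9 (55.6% and 11.1%, against 17.1% and 12.4% of all genes). In H929 5 of the 9 were called higher and 2 lower (55.6% and 22.2%, against 32.9% and 26.1% of all genes). S100A9 rose there from 0.0887 to 28.4 CPM. The summed myeloid markers ran from 37.8 to 46.5 CPM in H929 EV libraries and from 61.2 to 67.4 CPM with the IRF4 guide. The part of other cells in these results was not tested, and in bulk RNA a change in the share of cells and a change of RNA per cell cannot be told apart.

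B cell genes other than those of plasma cells widened in 5 of 21 and narrowed in 1. These shares were 23.8% and 4.76%, against 17.1% and 12.4% of all genes. PAX5, the B cell commitment factor, rose in H929 from 0.581 to 19.2 CPM and in RPMI-8226 from 0.772 to 2.39 CPM, with at most 0.0541 CPM as a mean in MM1S and OPM2 under either guide, and its SD went from 1.46 to 3.52. PTPRC (CD45) rose in H929 from 7.95 to 56.5 CPM and in RPMI-8226 from 0.994 to 25.1 CPM and went from 1.91 to 3.61. IRF8, the family member closest to IRF4, was the narrowed gene of the list, from 4.08 to 2.87. IRF8 rose in H929 from 0.0399, 0 and 0.0932 CPM to 0.561, 0.845 and 0.919 CPM and fell in RPMI-8226, its highest line, from 69.6, 63.8 and 60.4 CPM to 45.0, 43.2 and 45.2 CPM.

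Adhesion and homing genes were another list that spread apart, with 12 widened and 3 narrowed of 23. Their widened share was 52.2%, against 17.1% of all genes. The narrowed share of 13.04% was near the 12.4% of all genes. CD44, the hyaluronan receptor, rose in H929 from 827, 721 and 884 CPM to 1995, 1952 and 2177 CPM and fell in RPMI-8226, its lowest line, from 7.78, 8.41 and 7.68 CPM to 2.87, 3.51 and 3.34 CPM. ITGA4, the alpha 4 integrin chain, rose in H929 from a mean of 818 to 2527 CPM and fell in MM1S from 458 to 250.4 CPM and in RPMI-8226 from 36.9 to 27.8 CPM. The SDs of CD44 and ITGA4 went from 3.42 to 4.17 and from 1.94 to 2.67. ICAM1, the counter-receptor of leukocyte integrins and a target of NF-kB, narrowed instead, from 4.58 to 3.32. It fell in RPMI-8226, its highest line, from 269.8, 267 and 230.2 CPM to 146, 131 and 138 CPM and rose in the other 3, in H929 from 25, 27.5 and 37.6 CPM to 108, 99.1 and 160.4 CPM.

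NF-kB targets had 6 narrowed and 5 widened of 19 (31.6% and 26.3%, against 12.4% and 17.1% of all genes), with CCL22 rising in RPMI-8226 and LTB in RPMI-8226 and MM1S. Cytokine and death receptors had 3 narrowed (13.6%, near the share of all genes) and 6 widened (27.3%) of 22. IL2RG narrowed from 4.23 to 2.82 as OPM2 rose from 0.286 to 14.9 CPM, and IL2RB widened from 2.24 to 4.12 as H929 rose from 3.98 to 112 CPM. Unfolded protein response genes widened in 8 (36.4%) and narrowed in 2 (9.09%) of 22. Of 19 p53 targets 7 widened (36.8%) and 12 were not called. FDXR of that list rose by 1.57 and 1.74 log2 units in H929 and MM1S against 0.15 in OPM2 (not called) and 0.55 in RPMI-8226. Lysosome genes, with 3 narrowed and 5 widened of 26 (11.5% and 19.2%), were near the shares of all genes. CTSA (cathepsin A) widened from 0.53 to 1.30 through a rise in H929 from 135 to 666 CPM. Proteasome subunits widened in 5 of 32 (15.6%, below the 17.1% of all genes) with 27 not called. Cancer-testis antigens, whose median SD of 3.48 was high, had 1 widened of 19 (5.26%) and 18 not called. That 1 was MAGEC2 (adjusted p = 0.0429), and its call was lost under 21 alternatives, 14 of which left out a single library.

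The death genes named in the study's title had no called change of spread over the 4 lines. BMF, a BH3-only death gene, rose in all 4 lines, by 3.30 log2 units in H929, 3.24 in OPM2, 1.80 in MM1S and 1.42 in RPMI-8226, and its SD was 1.05 and 1.10 (difference 0.05 ± 0.08, adjusted p = 0.671). A difference in the response of BMF between lines was called by the F test in edgeR (adjusted p = 3.78e-09). Without RPMI-8226 the difference in the SD of BMF was -0.79, and BMF was called narrowed over the other lines (spread test, adjusted p = 1.80e-06). BMF still changed its order: MM1S averaged 236 CPM against 46.7 to 72.3 CPM elsewhere with the EV guide, and with the IRF4 guide RPMI-8226 stood alone at 152 CPM against 464 to 821 CPM. BCL2L11 (BIM), another BH3-only gene, rose by 0.77 to 1.04 in the 4 lines with an SD of 0.98 and 1.01 (difference 0.03 ± 0.05, adjusted p = 0.64), and a difference in response between lines was not called (adjusted p = 0.15). PRDM1 (BLIMP1) and KLF2, transcription factors of plasma cells, were lower in all 4 lines, with SDs of 1.13 and 1.22 and of 1.45 and 1.89 that were not called different. The F test called a difference in response between lines for PRDM1 (adjusted p = 0.000319) and not for KLF2 (adjusted p = 0.227). Of 15 BCL2 family members 3 narrowed and 5 widened (20% and 33.3%, against 12.4% and 17.1% of all genes). BCL2, the survival protein that venetoclax blocks, narrowed from 0.76 to 0.31 as H929 rose from 41.5 to 89.8 CPM towards the 120.0 to 145 CPM of the other lines. BBC3 (PUMA) widened from 1.21 to 1.88 as H929 and MM1S rose by 2.03 and 2.26 log2 units against 0.60 in OPM2 (not called) and 0.54 in RPMI-8226.

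**Figure D5:**
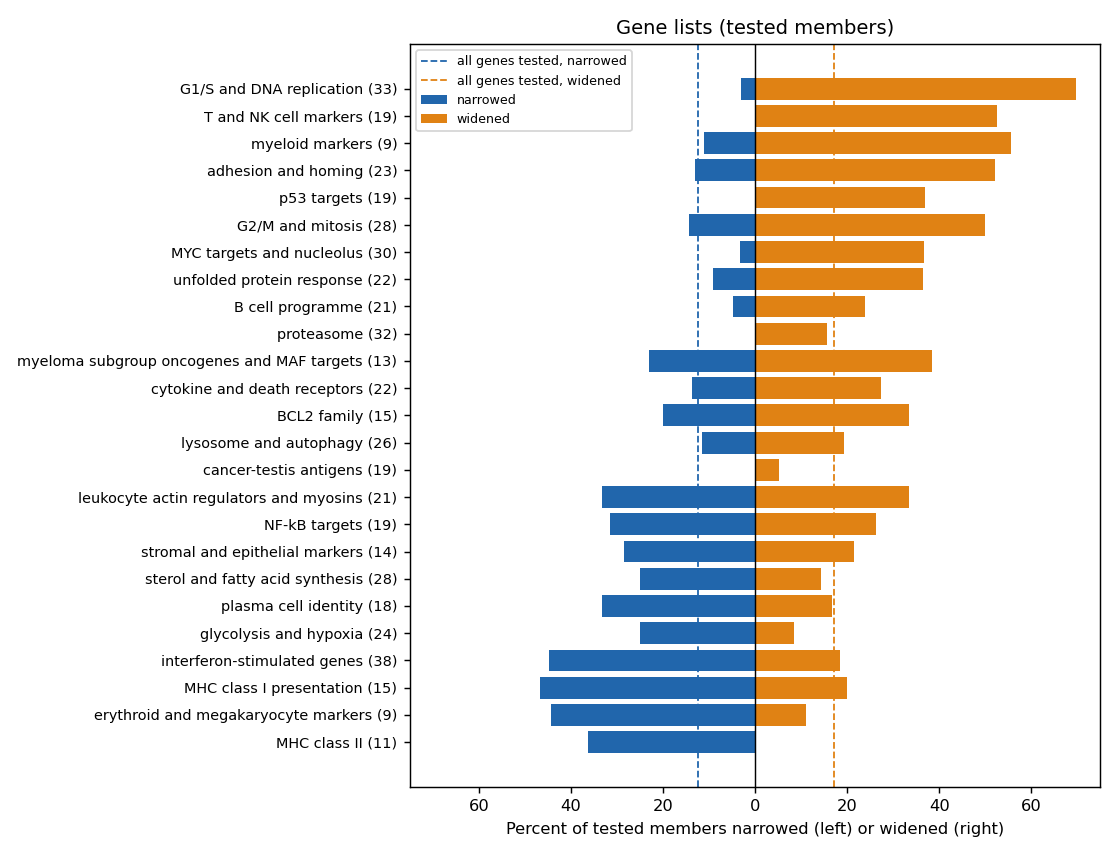
Percent of the tested members of each gene list that narrowed (left, blue) or widened (right, orange), with dashed lines for all genes tested (12.4% and 17.1%) and the number of tested members in brackets. G1/S and DNA replication genes reach furthest to the right and MHC class I and interferon-stimulated genes furthest to the left.

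Pairs of lines showed where genes moved. For a pair, a gene narrowed when the response of the 2 lines differed (edgeR) against the direction of their mean difference, which itself had to be called, and widened when it differed along it. H929 and RPMI-8226 had 2048 narrowed (12.4% of genes tested) and 2935 widened (17.8%), the largest imbalance. H929 and OPM2 had 1443 (8.76%) and 1807 (11%), and H929 and MM1S had 1826 (11.1%) and 1646 (10%). The pairs without H929 had somewhat more narrowed than widened genes: 1339 (8.13%) and 1211 (7.35%) for MM1S and OPM2, 1447 (8.79%) and 1359 (8.25%) for MM1S and RPMI-8226, and 1216 (7.38%) and 1081 (6.56%) for OPM2 and RPMI-8226. Without replicate 2 of the MM1S EV libraries there were 761 widened for MM1S and OPM2 and 931 narrowed and 903 widened for MM1S and RPMI-8226. Without replicate 3 there were 775 widened for MM1S and OPM2. GJA1, the gap junction protein connexin 43, crossed over between OPM2 and RPMI-8226, at means of 0.0248 and 31.4 CPM with the EV guide and 4.10 and 0.373 CPM with the IRF4 guide. GDPD5, a phosphodiesterase, was at 0 in MM1S with the EV guide and at a mean of 2.55 CPM with the IRF4 guide, next to 3.48 and 3.8 CPM in OPM2.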

How the data were processed

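For the 23 libraries the deposited file holds raw counts by Entrez gene, made by the authors with Subread and featureCounts on GRCh38 (hg38) per the submitters' processing notes, without versions. The authors' deposited log2 RPKM values, 1 column per library, were made with limma by the same notes and were used as an alternative only. Whether counting used strand is not given in the sources used here, which leaves genes that overlap, antisense genes and near copies uncertain. Rows with an Entrez ID and no symbol (490, 0.11 to 0.292% of counts) stayed in.

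Counts were filtered with filterByExpr and scaled by TMM in R 4.3.3 with edgeR 4.0.16. For each gene the SD of the 4 line means of log2 CPM (prior count 2) with the IRF4 guide minus that with the EV guide was tested, two-sided, with a delta-method SE from limma 3.58.1's moderated variance (trend, robust). Differences in response were tested with edgeR's robust quasi-likelihood F test, and changes within a line or pair as its contrasts. All p-values were adjusted by Benjamini-Hochberg over 16468 genes, and calls are at adjusted p under 0.05. The test scripts were tested on simulated data. Alternatives used DESeq2 1.42.0 size factors and tests, other filters, prior counts of 0.5 and 5, voom, a replicate block, each library left out and, chosen after seeing the data, each line left out.

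Replicates of a group correlated across genes at Pearson r of 0.988 to 0.995. Same-numbered libraries were not treated as pairs. The comparison, the 25 gene lists (576 of 577 entries in the table) and the members were chosen with earlier results of these data known. Named genes are IRF4, BMF, BCL2L11, PRDM1, MYC and KLF2, the 12 largest narrowings and widenings, for each list at most 3 called members, by adjusted p, and the 2 largest narrowed genes of the 3 pairs with the smallest ratio. Rankings left out genes without a symbol, LOC symbols, pseudogenes, XIST, TSIX and genes of chromosome Y. RefSeq promoters (GRCh38.p14) matched 12560 tested genes and 81 of 101 named genes by gene ID. Intervals and errors cover these libraries only.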

Additional observations from a re-analysis of the deposited data

Results flagged for a closer look

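A difference in response between the lines was called for 7899 genes, by an F test in edgeR. Of the 101 named genes, 23 were called higher in at least 1 line and lower in at least 1 other. The adjusted p of the difference in response was 2.85e-09 for MYC, 2.23e-10 for THBS2, 5.49e-15 for AFAP1L2 and 3.61e-08 for HS6ST2. It was 8.07e-12 for IFIT5, 1.98e-12 for PTPN13, 1.08e-08 for DERL3, 2.09e-05 for SLAMF7 and 9.28e-08 for IRF8. HLA-DRB1 had 0.000343, NUAK1 (a stress kinase) 1.33e-07, FOXM1 2.92e-08, LSS 1.81e-07, FDFT1 1.56e-07 and SREBF1 0.000141. Among surface and adhesion genes the adjusted p was 7.10e-09 for ICAM1, 2.67e-13 for CD44, 6.49e-13 for ITGA4, 6.87e-10 for IL10RA, 1.02e-05 for PECAM1 and 6.04e-09 for CDH2. GJA1 had 1.28e-16 and SOX9 6.61e-09. All these p-values come from edgeR's quasi-likelihood F test with Benjamini-Hochberg adjustment.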

How the results depend on the processing

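The overall change of spread was 0.019 and ranged from -0.0193 to 0.0599 over 34 alternatives, with exact permutation p from 0.00196 to 0.983. It changed sign with a prior count of 0.5 (-0.0079, exact permutation p = 0.781), with a mean log2 CPM of at least 2 (-0.0193) and without H929 (-0.000449). The permutation p was under 0.05 on deposited log2 RPKM (change 0.0599) and without OPM2 (change 0.0313). The distance ratios, in the order H929 with MM1S, with OPM2 and with RPMI-8226, MM1S with OPM2 and with RPMI-8226, and OPM2 with RPMI-8226, were 1.01, 1.00, 1.01, 0.983, 0.992 and 0.977 with a prior count of 0.5. They were 0.972, 0.982, 1.03, 0.962, 0.982 and 0.969 with a mean log2 CPM of at least 2, and 1.03, 1.07, 1.06, 1.03, 1.01 and 1.03 on deposited log2 RPKM. With a prior count of 5 the ratio was 1.04 for H929 with OPM2, 1.05 for H929 with RPMI-8226, 1.01 for MM1S with OPM2 and 1.00 for OPM2 with RPMI-8226. Widened genes fell to 1805 without H929. The cause of these changes was not tested, beyond fewer genes or lines entering some of them.

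Leaving out 1 library at a time gave 1813 to 2067 narrowed and 2568 to 2814 widened genes. Pair counts then ran from 894 to 1458 narrowed and 761 to 1292 widened for MM1S with OPM2, and from 931 to 1577 and 903 to 1387 for MM1S with RPMI-8226. Same-numbered libraries of the 2 guides correlated at 0.0256 to 0.183 over 11 pairs and other-numbered ones at -0.103 to 0.0403. Pairing was to be taken only if every same-numbered pair exceeded 0.1, which 6 of 11 did, among them all 3 of OPM2. With a replicate block within each line there were 2362 narrowed and 3208 widened genes, an overall change of 0.0203 (exact p = 0.513) and 1634 widened genes between OPM2 and RPMI-8226.

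Of the 101 named genes some SD differences changed sign. Without H929 they were -0.019 for BCL2L11, -0.10 for PRDM1, 0.024 for NPM1, -0.20 for CTSA and 0.050 for LAMP1. Without MM1S they were -0.00746 for IRF4, 0.22 for HLA-DRB1, -0.066 for VIM, 0.78 for GDPD5 and 1.92 for C2CD4D-AS1. Without OPM2 they were -0.23 for IRF4, -0.028 for BMF, 0.033 for GJA1 and -1.25 for SOX9. Without RPMI-8226 they were -0.79 for BMF, -0.011 for BCL2L11, 0.31 for KBTBD11, 0.26 for KRT6B, 1.26 for HS6ST2, 0.11 for SLAMF7, 0.22 for SLC16A3 and -0.12 for CD44. Without replicate 2 of OPM2 with the IRF4 guide IRF4 had -0.0195 (0.102 at most without any 1 library), and without replicate 2 of RPMI-8226 with the IRF4 guide BMF had -0.0348 (0.119 at most). Some of these reversed differences were called in the spread test. The adjusted p was 0.0241 for CTSA without H929, and 0.00254 for GDPD5 and 5.06e-06 for C2CD4D-AS1 without MM1S. It was 0.000192 for SOX9 without OPM2, and 1.80e-06 for BMF and 0.0223 for HS6ST2 without RPMI-8226. The other reversed differences were not called. With 2 to 3 libraries a group and 1 guide, small changes of spread in genes near 0 counts rest on few reads.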
